A study of Papilio machaon with 10 samples.

Results

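The genes described here are 150 genes of the swallowtail butterfly Papilio machaon whose RNA stood lowest in the fifth-instar larva (L5), clearly below its level in every other stage sampled. They were chosen by their measured values from the 15285 genes of the study. A gene had to reach 10 RPKM (reads on the gene scaled by its length and by a total for the library) in at least 1 library, which 11856 genes did. Its 10 values of log2(RPKM + 1) were then sorted, the widest gap between neighbouring values had to be at least 1, and L5 alone had to lie below that gap. In all, 318 genes met this rule, and the 150 with the widest gaps were taken. The low value in L5 is therefore how the genes were found and is given below as a description, with no test.

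The study sampled P. machaon through its life cycle by RNA sequencing of whole bodies, with 1 library per stage: egg, the larval instars L1 to L5, and pupae and adults of each sex. RNA was pooled from 10 individuals for egg and for L1 and from 5 for L2, and each of the other 7 libraries came from 1 individual. No treatment was applied, the sex of the larvae is not given, and neither is the age of the L5 larva within its instar. With 1 library per stage, the L5 values are those of 1 larva.

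Caterpillars grow by moulting from one instar to the next under pulses of the steroid hormone ecdysone. In the last instar juvenile hormone falls, the larva stops feeding, and tissues begin to be rebuilt for the pupa, so that this instar joins the time of greatest growth to the start of metamorphosis. The genes are listed by locus tag, and none of these tags could be paired with a gene name, so the roles of the members are not given.

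L5 was also the library with the fewest reads, 23274472 on genes against up to 35989828 in L2, and with the fewest genes at 1 RPKM or more, 11270 against up to 13282 in the male adult. Its 75th percentile of RPKM over genes above 0 was 23.98, while the other 9 libraries lay between 28.02 and 37.21. To describe this shift, 9002 comparison genes were taken. They reached 10 RPKM somewhere and had at least 1 RPKM in each of the 9 libraries other than L5. All 318 genes that met the rule are among them. Of the comparison genes, 77.8% were lower in L5 than in L4 and 34.3% had their lowest value in L5. Their median difference between L5 and L4 was -0.65 on the log2(RPKM + 1) scale, and that of the members was -2.21. After the libraries were scaled to a common 75th percentile, the medians were -0.23 and -1.89. The members were chosen for a low L5, so their wider difference was set by the rule and measures no excess beyond the shift. In whole bodies, fewer cells of a type and less RNA per cell cannot be told apart. What part the shift across L5 plays in the members' values was not tested.

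The median over the members was 12.8 RPKM in L4 and 1.49 RPKM in L5, and stood at 22.9 RPKM in the female pupa and 26.6 RPKM in the male pupa. From egg to L3 the medians were 22.2, 16.2, 15.7 and 11.8 RPKM, and in adults they were 25.0 RPKM for the female and 23.8 RPKM for the male. The members were thus moderately expressed genes everywhere but in L5. Over the comparison genes the median was 21.2 RPKM in L4, 12.8 in L5 and 26.4 and 22.3 in the female and male pupa. Outside L5 the members' medians lay below those of the comparison genes in L1 to L4 and the female pupa, and above them in the egg, the male pupa and both adults.

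**Figure D1:**
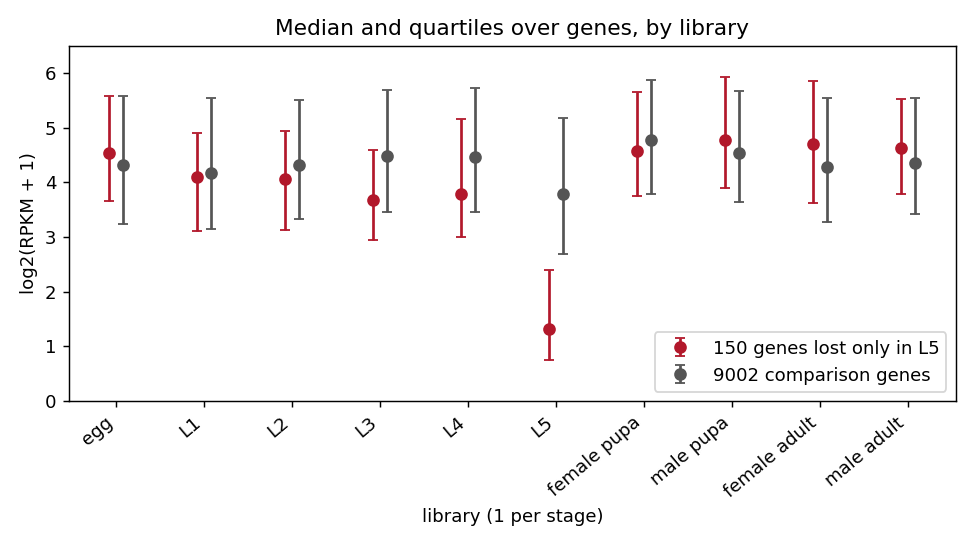
Median (point) and quartiles (bars) of log2(RPKM + 1) over the 150 members and over the 9002 comparison genes, in each of the 10 libraries, 1 per stage. The members' median is 1.49 RPKM in L5 and between 11.8 and 26.6 RPKM in the other libraries, while the comparison genes' median is 12.8 RPKM in L5.

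The members ranged in L5 from 0 to 29.9 RPKM, and in the library next above L5 from 1.66 to 126.29 RPKM with a median of 7.16. The gap between those 2 values ran from 1.37 to 3.62 on the log2(RPKM + 1) scale, with a median of 1.65 and quartiles of 1.49 and 1.86. For the 143 members above 0 in L5, the next-lowest RPKM was 2.73 to 27.8 times the L5 value (median 4.69), and the median of the 9 other libraries was 3.01 to 137 times the L5 value (median 8.99). Counting those listed at 0, 72 members were at least 10-fold below the median of the 9. Most members were lowered in L5 rather than silent: 100 remained at 1 RPKM or more and 50 were below 1 RPKM.

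The reads behind the L5 values were recovered from the steps between RPKM values. They numbered 0 to 842 per member with a median of 29. In L5, 7 members had 0 reads, 8 had 1 to 3, 21 had 4 to 9 and 114 had 10 or more, of which 37 had 100 or more. The exact 95% Poisson intervals of L5 reads given below cover counting error only and say nothing of the spread between larvae. The members were of ordinary length, with a median of 1050 bp against 1047 bp for the comparison genes, as recovered from the same steps.

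**Figure D2:**
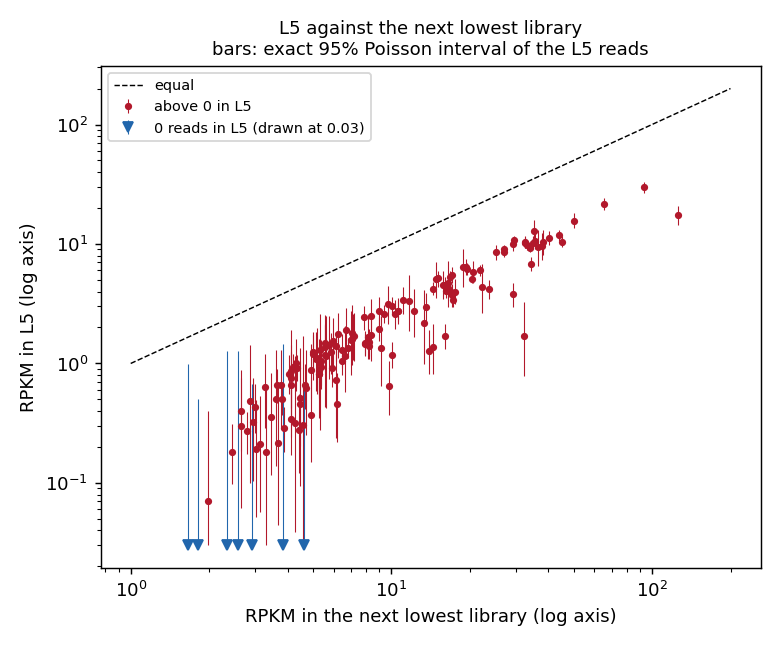
RPKM of each of the 150 members in L5 (vertical, log axis) against the library next above L5 (horizontal, log axis), with the exact 95% Poisson interval of the L5 reads as bars and the 7 members with 0 reads in L5 drawn as triangles at a fixed height. The points lie below the dashed line of equal values because the genes were chosen for this gap, and the bars are widest where L5 has few reads.

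The widest gap was that of RR48_05180. Its RPKM was 65.7 for the egg, then 32.2, 153, 117 and 269 from L1 to L4, 1.71 in L5, 168 and 178 in the female and male pupa, and 116 and 137 in the female and male adult. The gene thus went from its highest library to its lowest between L4 and L5, and both pupae were again above its value in the egg, L1, L2 and L3. Its L5 value rested on 9 reads (95% interval 4.12 to 17.1), and L1, the next lowest, was 18.9-fold above L5 (9.94 to 41.3 from the L5 interval).

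RR48_13294 had the second-widest gap and the highest mean over the other 9 libraries. It stood at 1104 RPKM in the egg, at 367, 137, 273 and 219 from L1 to L4, at 17.3 in L5, at 537 and 126 in the female and male pupa, and at 1617 and 288 in the female and male adult. It was highest in the female adult and the egg, and the male pupa was the library nearest to L5, 7.28-fold above it (6.12 to 8.73 from 127 L5 reads).

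The second-highest mean was that of RR48_04303, at 503 RPKM in the egg, 163, 891, 74.2 and 82.4 from L1 to L4, 21.6 in L5, 65.7 and 234 in the female and male pupa and 602 and 718 in the female and male adult. Here the L5 value was part of a wider low stretch, since L3, L4 and the female pupa were all under 100 RPKM.

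At the edge of the set the gaps on either side were alike and the levels were not. RR48_05770, the last gene inside, had a gap of 1.37, with 5.09 RPKM in L5 against 14.8 in L4, its next lowest, and 112 in the female adult, its highest. RR48_05636, the first gene outside, also had a gap of 1.37, with 1.13 RPKM in L5 against 4.50 in the egg and 28.7 in the male pupa.

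The same rule was run for each of the other libraries. L5 had 318 genes lost in it alone, the female adult 212, the female pupa 103, the male adult 80, the male pupa 61, the egg 38, L2 38, L1 13, L4 12 and L3 4. After scaling to a common 75th percentile, L5 had 172 and the female adult, with 184, had the most. With a gap of at least 2, L5 had 23 such genes, fewer than the female adult with 49 and the female pupa with 32. L5 therefore had the most genes lost alone with RPKM as deposited, but not after that scaling or at the wider gap. Of the 150 members, 134 still met the rule after the 75th-percentile scaling. With a pseudocount of 0.1 all 150 still met it, but 72 were among the 150 with the widest gaps, so which genes head the list depends on that choice.

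**Figure D3:**
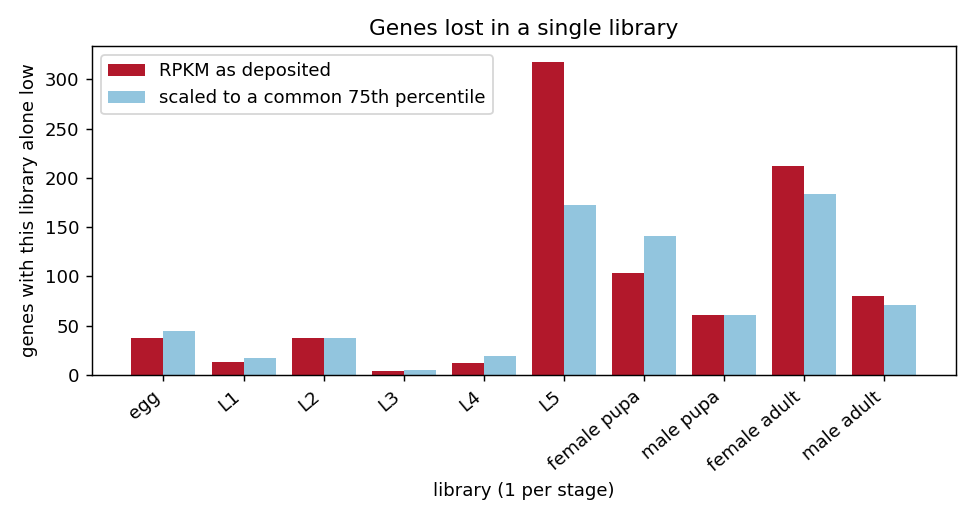
Number of genes lost only in each library by the same rule, with RPKM as deposited and after scaling to a common 75th percentile. L5 has 318 and the female adult 212 as deposited, and after scaling L5 has 172 and the female adult 184.

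The rule set where L5 lay but not which of the other 9 libraries was highest or lowest. It did limit the gaps among those 9, none of which could be wider than the gap at L5. The comparison genes had no such limit, so shares of genes in which 1 library stands apart are not like for like. The members had their highest value in a pupa in 66 cases (44% against 44.5% of the comparison genes), in an adult in 53 (35.3% against 22.9%), in the egg in 17 (11.3% against 5.78%) and in L1 to L4 in 14 (9.33% against 26.9%). By library the highest was the male pupa in 35 members, the female adult in 34, the female pupa in 31, the male adult in 19, the egg in 17, L2 in 9, L4 in 4 and L3 in 1, and it was L1 in 0. Few members peaked in a younger larva. The library next above L5 was one of L1 to L4 in 104 members (69.3% against 38.7% of comparison genes whose lowest of the 9 was there), with L4 in 32 and L3 in 29. Within the 9 libraries the highest was 1.76 to 38.6 times the lowest, with a median of 6.13 and quartiles of 4.37 and 9.61. For the comparison genes the median was 4.83, with quartiles of 3.12 and 9.63. The members' median and lower quartile were thus higher and the upper quartiles alike.

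**Figure D4:**
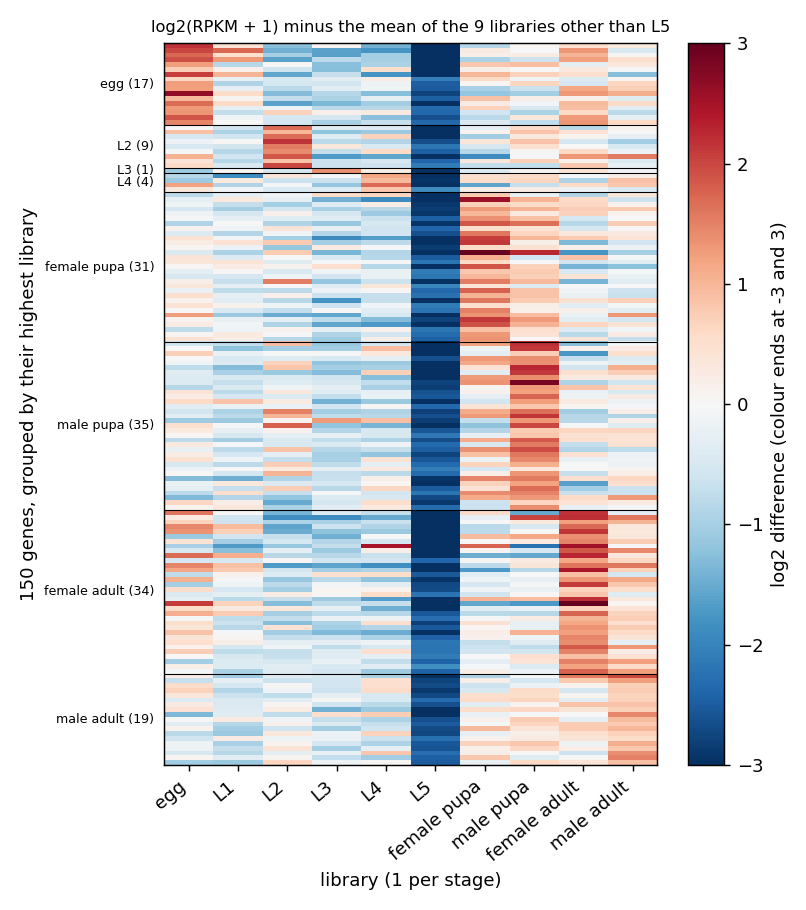
log2(RPKM + 1) of the 150 members in the 10 libraries, each gene shown as its difference from its mean over the 9 libraries other than L5 and grouped by its highest library. The number in each group is given beside it (35 for the male pupa, 34 for the female adult), and the L5 column is low throughout because of how the genes were chosen.

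L1 to L4 (4 libraries) were compared with the pupae and adults (4 libraries), leaving out L5 and the egg. The question was whether the younger larvae already stood below the later stages. The members were chosen for a low value in 1 larval library, and the comparison genes were not. How far that choice by itself favoured lower values in L1 to L4 was not tested. The rule's limit on gaps among the 9 libraries other than L5 also held for the members only. It bears on the counts and shares below, and its effect on them was not tested. Of the 150 members, all of which passed the filter of a mean of 1 RPKM, 10 were lower in L1 to L4 and 0 were higher by limma at an adjusted p of 0.05. Among all 14026 genes tested, 1.04% were lower in L1 to L4 and 3.68% were higher, and among the comparison genes 1.04% were lower and 1.42% were higher. At an unadjusted limma p under 0.05, 41 members were lower (27.3%, against 9.34% of all genes tested and 9.15% of comparison genes) and 0 were higher (against 9.29% and 6.27%). The mean was lower in L1 to L4 in 132 members (88% against 60.3% of comparison genes), and the median difference was -0.74 on the log2(RPKM + 1) scale against -0.17. In 25 members (16.7%) all of L1 to L4 lay below all 4 later libraries, as they did in 6.82% of comparison genes. In 0 members did they all lie above, against 3.79%. Scaling to the reads on genes moved the median of all genes tested from -0.22 to -0.40 and that of the members from -0.74 to -0.93.

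The libraries of each arm are different stages and not repeats of a condition, so these p-values set the difference against the spread between stages. In place of 10, the count of members called lower was 6 without L1, 4 without L2, 2 without L3, 2 without L4, 5 without the female pupa, 3 without the male pupa, 4 without the male adult and 7 without the female adult. Of the 10, those fits kept 5 without L1, 4 without the female pupa and 6 without the female adult, and in the other 5 fits each call was one of the 10. Over those fits 40 to 155 of all genes were lower, against 146 in the main fit, so the calls over all genes moved too. With the egg added to L1 to L4, 9 members were lower, of which 6 were among the 10, and 198 of all genes were lower. The exact permutation test of the 70 splits, two-sided, can go no lower than p = 0.0286. It reached that value in 25 members (16.7%) and in 13.5% of all genes tested, and called 0 after adjustment, with the smallest adjusted p at 0.212.

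RR48_10870 had the largest difference among the 10. Its RPKM was 25.6, 9.97, 9.80 and 13.1 in L1 to L4, 32.9 and 163 in the female and male pupa and 184 and 118 in the female and male adult, with 47.7 in the egg and 0.642 in L5 (16 reads). All 4 younger larvae were below all 4 later libraries. The difference was -2.86 on the log2(RPKM + 1) scale (SE 0.58, adjusted p = 0.0268 by limma), with adjusted p from 0.0058 to 0.212 over the alternatives, and the gene was called in 2 of the 8 fits that left out a library.

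RR48_02066 came next, at 61.6, 31.8, 16.5 and 20.1 RPKM in L1 to L4, 276 and 132 in the female and male pupa, and 110 and 86.0 in the female and male adult, with 87.7 in the egg and 4.26 in L5. Here too the arms did not overlap, and L3 and L4 were the lowest libraries outside L5. The difference was -2.22 (SE 0.51, adjusted p = 0.0456 by limma). Over the alternatives the adjusted p ran from 0.0308 to 0.212, and 1 of the 8 fits that left out a library called it.

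**Figure D5:**
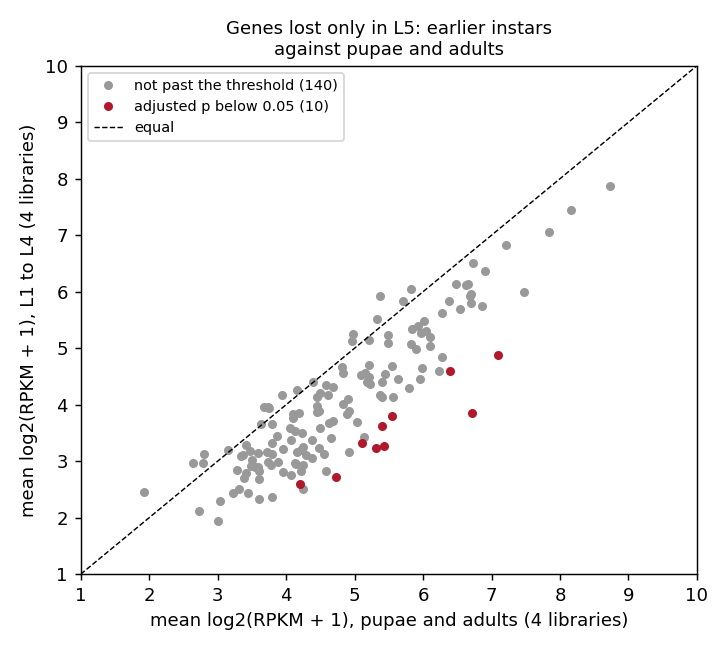
Mean log2(RPKM + 1) of each member in L1 to L4 (vertical, 4 libraries) against its mean in the pupae and adults (horizontal, 4 libraries), with the 10 members past an adjusted p of 0.05 by limma in red. The means lie below the dashed line of equal values in 132 of the 150 members.

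Against the instars before it, L4 was 2-fold or more beyond the range in 7 members. L4 lay at least 2-fold below the whole range of L1 to L3 in 1 member, where 2.17% of comparison genes did. It lay at least 2-fold above that range in 6, where 3.77% did. The rule's limit on gaps among the 9 libraries bears on both counts and does not hold for the comparison genes. The median of L4 minus the mean of L1 to L3 was -0.12 over the members and 0.13 over the comparison genes. The member with the low L4 was RR48_13576, at 12.1, 12.6 and 7.88 RPKM in L1 to L3, 2.94 in L4 and 0.322 in L5 (5 reads), so that each of L3, L4 and L5 was below the one before. The L4 value furthest above the range of L1 to L3 was that of RR48_05163. It had 6.80, 10.7 and 14.6 RPKM in L1 to L3, 140 in L4 and 0.280 in L5 (8 reads). It was followed by RR48_07931, at 4.62, 5.46 and 5.28 RPKM in L1 to L3, 23.6 in L4, and 0 reads in L5, which puts L1, its next lowest library, at least 8.78-fold above the 3 reads that a count of 0 allows. RR48_05163 and RR48_07931 both had their highest value of the larval instars in L4 and their lowest in L5.

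On the other side of L5, both pupae were above L4 in 98 members (65.3% against 45.1% of comparison genes), and the mean of the pupae exceeded L4 by a median of 0.81 on the log2(RPKM + 1) scale against 0.22. The members were chosen for a low value in 1 larval library, and what that choice adds to these differences was not tested. Between pupa and adult, 8 members passed a 4-fold difference in both sexes. The rule's limit on gaps bears on such 4-fold counts for the members only. In both sexes 2 members were at least 4-fold higher in the adult than in the pupa, where 3.5% of comparison genes were, and 6 were at least 4-fold lower, where 2.53% were. The balance turned with a common 75th percentile, which gave 5 higher, where 4.45% of comparison genes were, and 2 lower, where 1.80% were, so no direction is read from these counts. RR48_07817 had the largest such difference, with 399 and 184 RPKM in the female and male pupa against 10.3 and 18.3 in the adults, with 13.8 to 64.4 over L1 to L4 and 2.60 in L5. RR48_08771 had 34.4 and 99.2 RPKM in the female and male pupa against 6.45 and 8.26 in the adults. In both genes the pupae were the 2 highest libraries. The 2 members higher in adults were RR48_05223, at 3.00 and 3.44 RPKM in the pupae and 21.2 and 18.0 in the adults, and RR48_05771, at 31.6 and 29.3 in the pupae and 180 and 125 in the adults.

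Between the sexes, 2 members (1.33%) passed a 4-fold difference in both stages, near the 0.900% of comparison genes that did. The same sex was at least 4-fold higher in both the pupa and the adult in 0 members for males, where 0.5% of comparison genes were, and in 2 members for females, where 0.4% were. Those 2 were RR48_13294, already described, and RR48_05163, at 85.1 RPKM in the female pupa against 4.43 in the male pupa and 145 in the female adult against 24.7 in the male adult. On the log2(RPKM + 1) scale, males minus females was -3.99 in the pupa and -2.51 in the adult for RR48_05163, and -2.08 and -2.49 for RR48_13294. The members nearest to a male excess were RR48_02062, with 1.84 in the pupa and 1.63 in the adult, and RR48_15319, with 2.04 and 1.16. Each sex and stage is 1 individual, so these are differences between single insects. As between pupa and adult, the limit on gaps bears on the members' 4-fold counts and not on those of the comparison genes. The male pupa was above the female pupa in 89 members (59.3% against 36.7% of comparison genes), and the male adult above the female adult in 67 (44.7% against 50.7%). With a common 75th percentile these shares were 69.3% against 44.8% in the pupa and 40% against 48.4% in the adult.

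The egg stood high for many members. It was above all of L1 to L4 in 71 members (47.3% against 19.2% of comparison genes) and below all of them in 12 (25.5% of comparison genes), and its median difference from the mean of L1 to L4 was 0.48 on the log2(RPKM + 1) scale against -0.07. At 2-fold beyond the whole range of L1 to L4 the egg was higher in 16 members, where 2.71% of comparison genes were. It was lower in 0, where 2.2% were. Here too the rule's limit on gaps bears on the members' counts only. RR48_05223 had the largest excess, with 56.2 RPKM in the egg against 12.2, 2.65, 3.95 and 2.70 in L1 to L4. RR48_10884 followed, with 61.9 RPKM in the egg against 14.8, 10.8, 10.9 and 6.23. The members with the egg furthest below the range of L1 to L4 were RR48_10887 and RR48_12909. RR48_10887 had 8.10 RPKM in the egg against 12.6 to 37.7 in L1 to L4, and RR48_12909 had 13.9 against 21.1 to 82.1.

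A group noticed in the data joined the egg with the female adult. These were the 2 highest libraries in 21 members (14%) and in 2.97% of the comparison genes, and the count was 22 after scaling to a common 75th percentile and 17 after scaling to the reads on genes. Shares of comparison genes after these scalings are not given, and the rule's limit on gaps held for the members only. The female adult was the higher of the pair in 13 and the egg in 8. The median RPKM of the 21 was 58.0 in the egg, 36.4 in the female adult, 16.8 in the male adult, 16.4 in L1 and 1.38 in L5. RR48_13294 is the most abundant of them. The other frequent pairs were both pupae in 32 members (21.3% against 16.8%) and both adults in 18 (12% against 8.36%).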

How the data were processed

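Whole-body poly-A RNA of P. machaon was sequenced as paired ends on an Illumina instrument, with 1 library per stage. The values used are RPKM per gene, which the authors deposited as 1 table. The submitters' processing notes name TopHat 1.0.12 and TopHat 1.4.1, and the counting tool and genome build are not given in the sources used here. Each of the 10 columns matched 1 library by its name.

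Reads per gene were recovered from the RPKM steps, taking gene lengths in steps of 3 bp, and served only for exact 95% Poisson intervals and a floor of 3 reads. The library totals recovered from the RPKM values were below the reads on genes in every library, by 1.05 to 1.55 times, so what total the authors scaled by is not known. Where a gene has few reads, its true number may be a whole multiple of the one recovered. L1 to L4 were compared with pupae and adults by limma 3.58.1 in R 4.3.3 (eBayes with trend) on log2(RPKM + 1). Genes needed a mean of at least 1 RPKM, with Benjamini-Hochberg adjustment over all 14026 genes. Folds on this scale understate the change of low genes. Other comparisons set single libraries against each other and used folds only, 4-fold for sex and for adult against pupa and 2-fold for L4 and egg. The scripts were tested on simulated data.

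Members and comparisons were chosen with earlier results of these data known. At most 2 locus tags were named per direction of a comparison, those with the widest gaps, the highest means or the largest differences, and the genes at the edge of the rule. Of the locus tags, 0 were found in the RefSeq gene table, so the pathway lists were not used. Alternatives were another pseudocount (0.1), a 75th-percentile scaling, a stricter gap of 2, no filter on low values, an exact permutation test, the egg added to L1 to L4, other minimum levels, a 2-fold threshold and leaving out each library. A scaling to each library's reads on genes was chosen after seeing the data.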

Additional observations from a re-analysis of the deposited data

How the results depend on the processing

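The set of 318 genes lost only in L5 became 617 with a pseudocount of 0.1 (72 of the 150 stayed among the widest 150 gaps), 172 with a common 75th percentile and 23 with a gap of at least 2, and ran from 314 to 377 when 1 other library was left out. It became 284 after scaling to the reads on genes, a setting chosen after seeing the data. The genes lost only in 1 of the other 9 libraries, 561 in all, became 898 with a pseudocount of 0.1. Between L1 to L4 and the pupae and adults, leaving out 1 library gave 2 to 7 members lower, 40 to 155 of all genes lower and 355 to 578 higher. The exact permutation test called 0 members lower, 0 genes lower and 0 higher after adjustment, while 1890 genes had an unadjusted p under 0.05 by it and 2613 by limma. Members with a low L4 numbered 2 with a pseudocount of 0.1 and 2 with a common 75th percentile, against 1. At 2-fold, 4 members were higher in males, 5 in females, 18 in adults and 17 in pupae. The shares of comparison genes at 2-fold are not given, so these counts are not read as a trait of the members. At 4-fold with a common 75th percentile, 1 was higher in females, 5 in adults and 2 in pupae. The balance of members higher and lower in adults therefore turned with that scaling, as did the order of L5 and the female adult in genes lost alone (318 and 212, then 172 and 184). The 2 genes named from limma kept their sign in every alternative run. No paired analysis was possible because each stage had 1 library and no replicate numbers. Depth most limits the 15 members with 3 reads or fewer in L5, whose size of loss is known only as a range. It also limits the 21 with 4 to 9 reads. For RR48_05180, with 9 reads, the fold of the next lowest library over L5 ran from 9.94 to 41.3. In addition, 1 larva stands for L5.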

Other observations

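Members lay beside each other in the order of locus tags in 9 pairs of consecutive tags, which hold 18 members. Among all 318 genes that met the rule there were 35 such pairs, holding 68 genes, and of the 212 genes lost only in the female adult 33 were in such a pair. Over the 9 libraries other than L5 the 2 members of a pair had correlations of log2(RPKM + 1) from 0.69 to 0.99, given as a description because the libraries share depth and stage. RR48_07931 and its neighbour RR48_07932, a pair chosen after its values were seen, gave 0.97, with 23.6 and 74.3 RPKM in L4, 0 and 4.00 in L5 and 55.6 and 198 in the male pupa, the highest library of both. The densest run of 31 consecutive tags, found by its count, held 7 members and 9 genes that met the rule, and 24 of its 31 genes (77.4%) were lower in L5 than in L4, close to the 77.8% of comparison genes. Whether consecutive tags lie side by side in the genome was not tested. Pair counts and correlations for consecutive tags over all genes are not given, so neither is read as a trait of the members.

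The 168 genes that met the rule but fell outside the 150 differed from L4 in L5 by a median of -1.67 on the log2(RPKM + 1) scale, and from the pupae and adults in L1 to L4 by a median of -0.67, against -2.21 and -0.74 in the members.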
